A study of Chlamydomonas reinhardtii with 28 samples.

Results

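The outermost 50 kb of each end of the 17 chromosomes of Chlamydomonas reinhardtii, a haploid green alga, were described from peak lists of 4 histone marks. A peak was counted at an end when its midpoint lay in the first 50 kb of a chromosome or within 50 kb of the farthest peak end of that chromosome in any list. These 34 windows span 1.7 Mb, or 1.51% of the 112 Mb of chromosome sequence covered by the lists, and hold 2957 of the 152930 peaks in all 18 lists (1.93%). The rule used positions alone, not the level of any mark. The true sequence ends are not given in the lists, so position 1 and the farthest peak stand in for them. On the right side the farthest peak therefore lies at distance 0, whichever mark it belongs to. Distances and coverage next to a right end thus partly follow from this rule. On the left side, the first peak of any list lay within 2 kb of position 1 on 15 of 17 chromosomes, while it lay 6.66 kb from it on chromosome 11 and 8.29 kb from it on chromosome 6.

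Chromatin immunoprecipitation followed by sequencing (ChIP-seq) had been carried out on cells in the vegetative stage of the strains CC-5155 (mating type plus, written mt+) and CC-5325 (mating type minus, written mt-). Wild type (WT) and a knockout of DNMT1 (dnmt1) were profiled in both strains for H3K9me1, H3K9me3, H3K4me3 and H3K4me1, and a knockout of SET3 (set3) was profiled in both strains for H3K9me1 alone. The labels do not say how the knockouts were made or how many lines were used, and every mark was profiled with 1 library per genotype and strain. Genotypes were therefore compared within a strain, both strains are shown side by side, and no test between genotypes was made, since 2 libraries of each cannot reach p under 0.05 by exact permutation.

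Methylation of lysine 9 of histone H3 is found in silenced chromatin, where in this alga H3K9me1 is the form known from repressed transgenes and repeats. H3K4me3 marks the start sites of active genes. DNMT1 is a maintenance methyltransferase that copies cytosine methylation to newly made DNA, and SET3, a protein with a SET domain, adds a single methyl group to lysine 9. Chromosome ends carry telomeric repeats and, next to them, subtelomeric sequence that is often repeated between chromosomes. How the authors placed reads from such repeats is not stated in the labels or lists.

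The depth behind the calls was read from the local background at each summit, a scaled pileup recovered from the deposited fold and p-value. Its median over the end peaks of a list ran from 19.0 for H3K4me3 in WT mt+ to 50.8 for H3K9me1 in dnmt1 mt-. For H3K9me1 it was higher at ends than in interiors in all 6 lists, by as little as 38.0 against 34.7 in WT mt+ and as much as 50.8 against 39.0 in dnmt1 mt-. At 10 of the 34 ends the median background of at least 1 list was over 2 times that list's overall median, namely the left ends of chromosomes 1, 10, 15 and 16 and the right ends of chromosomes 3, 5, 8, 9, 13 and 14. Leaving out these 10 ends moved none of the recomputed fold changes in length, kept shares or counts of ends by over 1.5 times. Some did move beyond the spread between strains, as given below. In 1 library, H3K9me1 of dnmt1 mt+, 3 of these ends stood apart: chromosome 1 left, chromosome 8 right and chromosome 14 right had backgrounds of 249, 245 and 258, against a median of 31.4 over all its end peaks. They are described on their own and were singled out after their values were seen.

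In WT cells H3K9me1 was the main mark of the chromosome ends. It covered 34.5% of the end sequence in mt+ and 35.3% in mt-, against 5.91% and 6.26% of the interiors. H3K4me3 and H3K9me3, in contrast, were sparser at the ends than inside. H3K4me3 covered 6.37% and 6.84% of the ends against 11.5% and 12.1% of the interiors, and H3K9me3 covered 4.51% and 4.84% against 7.39% and 7.93%. H3K4me1, the weakest of the marks, covered 0.477% of the ends in mt+ and 1.54% in mt-. Over its 6 libraries of all genotypes, the log2 ratio of end to interior coverage of H3K9me1 was 3.58 ± 1.25 (SD, n = 6) and was above 0 in 6 of 6 (exact sign-flip permutation test, two-sided, p = 0.03125, the smallest that 6 libraries can give; Benjamini-Hochberg adjusted over 4 marks, 0.125). An adjusted value of 0.125 is the smallest that these numbers of libraries could give, so no mark could have passed a threshold of 0.05. For H3K4me3 the ratio was -0.80 ± 0.07 (SD, n = 4) and below 0 in 4 of 4 libraries (exact permutation p = 0.125, the smallest possible; adjusted 0.167). H3K4me1 gave -0.38 ± 0.19 (SD, n = 4), also below 0 in 4 of 4 libraries, with the same p-values in the exact permutation test. When only peaks with a −log10 q of at least 5 were kept, its mean was 0.51. That mean covers only the libraries that still had such peaks at the ends, with values of 0.97 and 0.052. For H3K9me3 the ratio changed sign with genotype, at -0.71 in both WT libraries and 0.42 and 0.68 in the dnmt1 libraries. Its mean was -0.08 (exact permutation p = 0.75, adjusted 0.75), which describes neither genotype.

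By distance, WT H3K9me1 was highest in the first 15 kb and then declined. In mt+ it covered 67.1% of the first 5 kb, 60.7% of the next 5 kb, 60.1% at 10 to 15 kb and 45.0% at 15 to 20 kb. The mt- list gave 65.0%, 62.7%, 60.7% and 46.5% over the same steps. Coverage was down to 26.5% and 27.4% at 25 to 30 kb, and to 14.0% and 12.3% at 35 to 40 kb. Across the border of the windows nothing changed abruptly: the last step inside, 45 to 50 kb, held 9.07% in mt+ and 11.2% in mt-, and the first step outside held 10.2% and 11.6%. Of the 34 ends, 25 in mt+ and 24 in mt- had at least 50% of their outermost 5 kb under H3K9me1, compared with 3 and 4 ends at 45 to 50 kb.

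**Figure D1:**
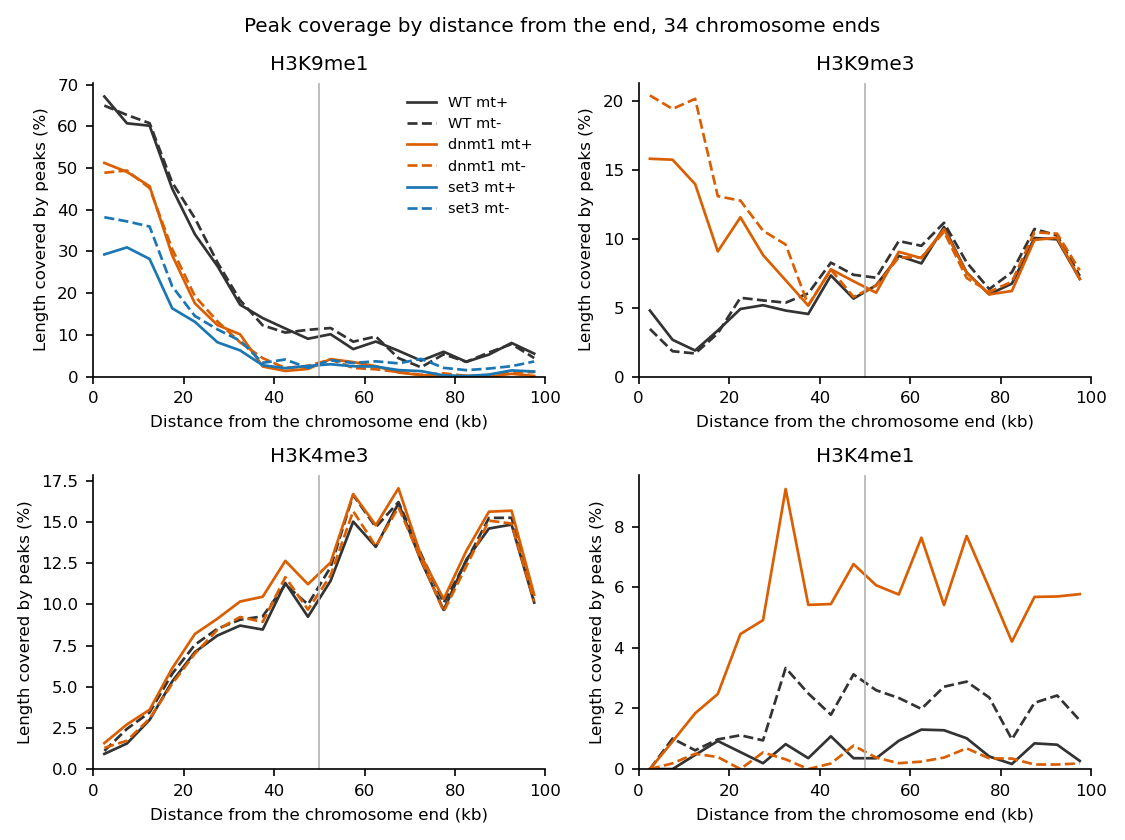
Share of sequence covered by peaks (y axis, %) in 5 kb steps from the chromosome end (x axis, kb, shown to 100 kb, with a grey line at 50 kb), pooled over 34 ends, for each of 4 marks. Each line is 1 library: black for WT, orange for dnmt1 and blue for set3, solid for mt+ and dashed for mt-. H3K9me1 falls from 67.1% and 65.0% in WT, and H3K9me3 in the first 5 kb stands at 15.8% and 20.4% in dnmt1 against 4.79% and 3.45% in WT.

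H3K4me3 had the opposite profile. It went from 0.922% of the first 5 kb in WT mt+ and 1.11% in WT mt- to 9.25% and 10.00% at 45 to 50 kb. The outermost H3K4me3 peak of an end lay at a median of 17.3 kb in mt+ and 16.5 kb in mt- (33 ends each), while the outermost H3K9me1 peak lay at 0.356 and 0.393 kb (32 ends each). H3K9me1 was the nearer of the pair at 29 of the 32 ends that had both marks, in each strain. At right ends, where the farthest peak of any list sets the end, this order partly follows from the rule. Of the WT H3K9me1 length, 70.5% in mt+ and 68.5% in mt- lay outside the outermost H3K4me3 peak of its end. The marks hardly overlapped, since 2.10 kb of the 587 kb of H3K9me1 in mt+ and 1.54 kb of the 599 kb in mt- also lay under H3K4me3. H3K9me3 in WT was low in the first 20 kb, between 1.89% and 4.79% in mt+ and between 1.68% and 3.45% in mt-, and reached 7.34% and 8.27% at 40 to 45 kb. No H3K4me1 peak covered any of the first 5 kb in the 4 libraries of that mark.

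End by end, the WT length under H3K9me1 ranged from 0 to 39.1 kb of 50 kb in mt+, with a median of 18.2 kb, and from 0 to 36.6 kb in mt-, with a median of 18.4 kb. At least 20 kb was covered at 15 ends in mt+ and 14 ends in mt-. Chromosome 4 right carried the most, with 39.1 kb in mt+ and 36.6 kb in mt-. Chromosome 3 left had 35.8 and 33.6 kb, chromosome 5 right 37.4 and 30.9 kb, chromosome 17 left 34.4 and 33.7 kb, and chromosome 15 right 28.2 and 27.7 kb. Chromosome 8 right and chromosome 14 right had no H3K9me1 in either WT list. The strains shared most of this sequence: 92.6% of the mt+ length and 90.7% of the mt- length lay under both lists. They differed at some ends, such as chromosome 15 left with 15.9 kb in mt+ and 32.3 kb in mt-, and chromosome 3 right with 16.1 and 29.3 kb. At those ends the background of the mt- list was raised, to 128 and 139, while its overall median was 37.2. The part of this background in the strain difference was not tested.

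The end domains were wide. Joined over gaps of up to 5 kb, the H3K9me1 run that began at the end reached inward by a median of 19.96 kb for WT mt+ and 18.3 kb for WT mt-, counting ends without such a run as 0. Peaks of at least 5 kb, taken at full width including any part outside the windows, numbered 29 and 27. They summed to 391 and 388 kb, where the covered length within the windows was 587 and 599 kb. The widest was on chromosome 5, at 3628486 to 3654446 in mt+ (26.0 kb, fold 5.03) and 3628415 to 3654427 in mt- (26.0 kb, fold 3.80), in the coordinates of the deposited lists. It did not reach the end, having its midpoint 40.6 kb from it. The widest peaks of the other marks in WT were far narrower. H3K9me3 reached 1.95 kb in mt+ and 3.98 kb in mt-, both at chromosome 13 right. H3K4me3 reached 1.95 and 2.04 kb, both at chromosome 9 right near 34.8 kb from the end. H3K4me1 reached 0.673 kb at chromosome 6 left in mt+ and 1.00 kb at chromosome 7 left in mt-.

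The first comparison asked what remained of the H3K9me1 end domains without DNMT1. They were shorter and thinner, but a large part was still present, above all next to the end itself. H3K9me1 covered 375 kb of end sequence in dnmt1 mt+ and 380 kb in dnmt1 mt-, against 587 and 599 kb in WT. The log2 ratio was -0.65 in mt+ and -0.66 in mt-, or -0.65 ± 0.0064 (SD over strains, n = 2), while in the interiors it was -3.80 and -2.45. Length was lower than WT in both strains at 28 of 34 ends. No replicate error is available for these values. The agreement between the strains depends on the 3 ends with raised background in dnmt1 mt+: without them the ratio was -0.88 in mt+ and -0.65 in mt-. Without all 10 ends of raised background it was -0.89 in mt+ and -0.51 in mt-.

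The share of WT length that was also covered in dnmt1 fell with distance from the end. In mt+ it was 62.5% in the first 5 kb, 67.8% at 5 to 10 kb and 65.0% at 10 to 15 kb, and then 54.3%, 40.2% and 36.7% in the 3 steps up to 30 kb. In mt- the same steps kept 74.6%, 78.5%, 74.3%, 65.7%, 50.2% and 47.7%. Beyond 40 kb the kept share was between 7.78% and 19.0% in both strains. The first step outside the windows kept 17.3% in mt+ and 29.9% in mt-. The remaining domains still began close to the end and stopped sooner. The outermost H3K9me1 peak lay at a median of 0.574 kb in dnmt1 mt+ and 0.642 kb in dnmt1 mt-, and the run from the end reached a median of 13.7 and 12.6 kb. That run was shorter than in WT by over 1 kb at 22 of 29 ends in mt+ and 20 of 27 in mt-. Of the dnmt1 H3K9me1 length, 92.1% and 88.1% lay outside the outermost H3K4me3 peak.

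**Figure D2:**
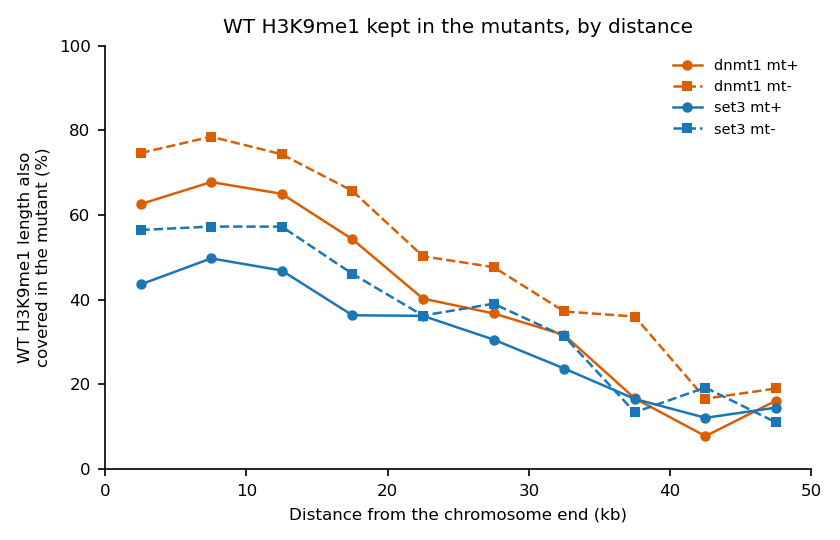
Share of the WT H3K9me1 length that was also covered in the mutant of the same strain (y axis, %) in 5 kb steps from the chromosome end (x axis, kb), pooled over 34 ends. Orange is dnmt1 and blue is set3, circles with solid lines are mt+ and squares with dashed lines are mt-. In the first 5 kb dnmt1 kept 62.5% and 74.6% and set3 kept 43.6% and 56.4%, and every line ends below 20% at 45 to 50 kb.

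Counted as peaks, 95 of 219 WT end peaks of mt+ overlapped a dnmt1 peak (43.4%, Wilson 95% interval 37.0 to 50.0), as did 94 of 179 of mt- (52.5%, 45.2 to 59.7), where over all sequences the share was 10.2% and 16%. When at least 50% of a peak had to be overlapped, the shares at the ends were 29.7% and 30.7%. This stricter overlap was not counted over all sequences. Without the 10 ends of raised background, and with an overlap of 1 bp, the shares at the ends were 29.6% in mt+ and 50.8% in mt-. The kept peaks were the wider ones, with a median width of 1.18 kb against 0.780 kb for lost peaks in mt+ and 2.26 against 0.75 kb in mt-. An overlap of 1 bp is more easily met by a wide peak, and the part of this in the contrast was not tested. Few end peaks were gained: 21 of 237 in dnmt1 mt+ (8.86%, 5.87 to 13.2) and 17 of 173 in dnmt1 mt- (9.83%, 6.23 to 15.2) had no WT peak beneath them, compared with 30.4% and 44.9% over all sequences. Among ends with at least 5 kb of H3K9me1 in WT, 12 of 27 in mt+ and 19 of 29 in mt- kept at least 50% of it, while 0.958% and 2.08% of interior windows of the same size did so. These shares come from positions in 2 lists each, and the intervals cover counting error only.

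Ends differed widely in how much they kept, and several stood high or low in both strains. Chromosome 9 right kept 94.0% of its WT length in mt+ and 97.8% in mt-, where WT had 17.3 and 16.7 kb and dnmt1 16.3 and 16.9 kb. Chromosome 2 left kept 92.3% and 94.1% of its 20.8 kb. Chromosome 16 right kept 89.0% and 97.0%, where WT had 19.0 and 17.7 kb and dnmt1 16.9 and 17.2 kb. The longest domain that stayed nearly whole was chromosome 17 left, which kept 88.2% and 95.2%. Chromosome 8 left kept 85.3% and 96.5%, and chromosome 13 right, a short domain of 6.81 kb (WT mt+) or 7.003 kb (WT mt-), had 6.90 and 5.65 kb in dnmt1. At the other extreme stood chromosome 11 left, where 22.6 and 18.7 kb in WT were reduced to 0.241 and 2.99 kb, and chromosome 12 right, where 22.8 and 22.5 kb were reduced to 0 and 5.16 kb. Chromosome 15 left kept 30.6% and 11.7%, chromosome 3 right 41.2% and 14.6%, and chromosome 5 right 28.3% and 37.7%. The left end of chromosome 15 and the right ends of chromosomes 3, 5, 9 and 13 belong to those with raised background, and its part in the kept shares was not tested. Over ends with at least 5 kb in WT, the kept share ran from 0 to 94.0% in mt+ (median 49.5%) and from 4.79% to 98.8% in mt- (median 72.9%).

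**Figure D3:**
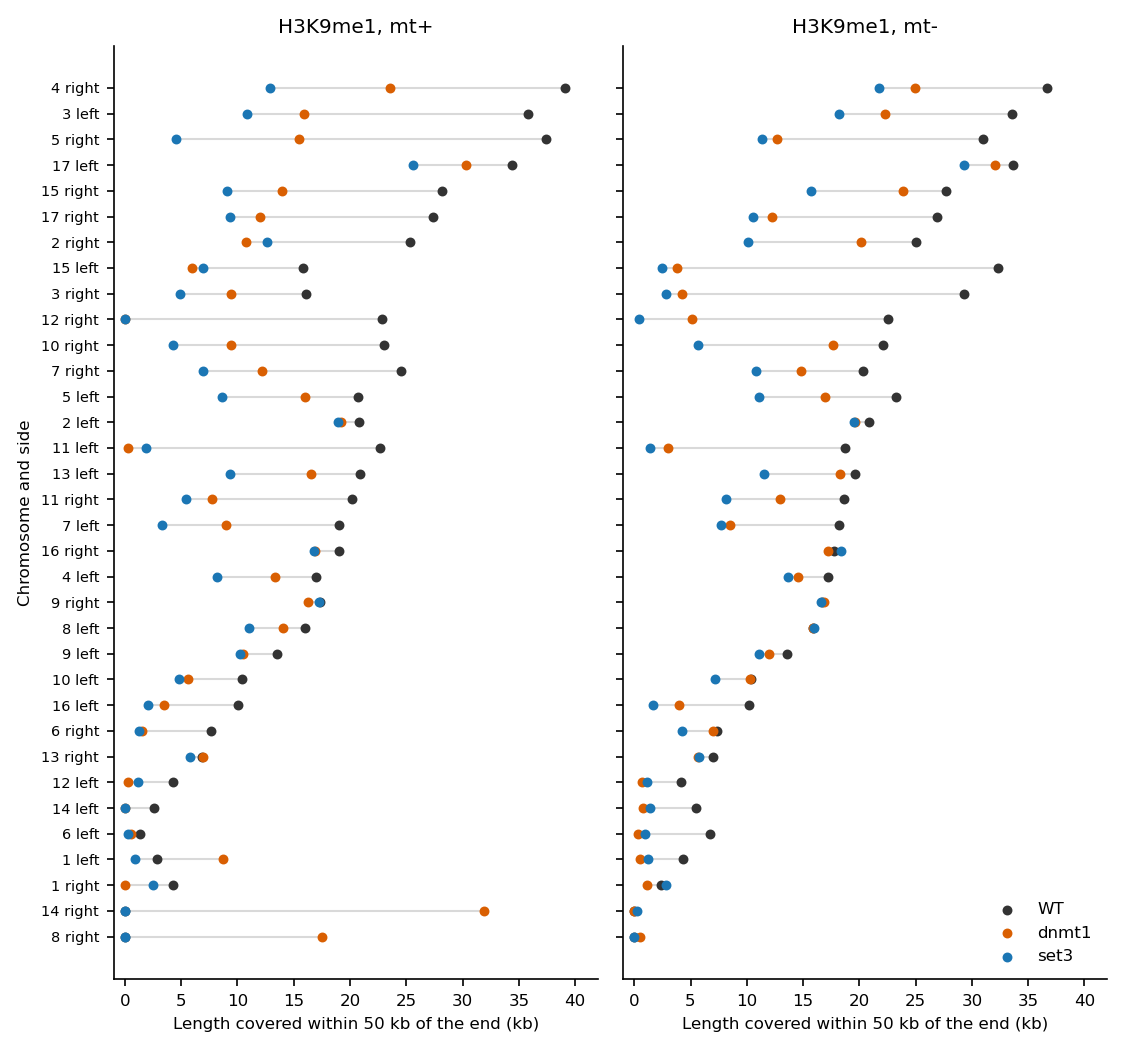
Length under H3K9me1 within 50 kb of each chromosome end (x axis, kb) for the 34 ends (y axis, ordered by the sum of both WT lists), mt+ on the left and mt- on the right. Points are single libraries, black for WT, orange for dnmt1 and blue for set3, and a grey line joins the libraries of an end. Chromosome 17 left keeps 30.3 and 32.1 kb in dnmt1, chromosome 12 right keeps 0 and 5.16 kb, and at chromosomes 8 right and 14 right dnmt1 mt+ alone shows 17.5 and 31.9 kb.

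The 3 ends with raised background gained H3K9me1 in dnmt1 mt+ alone. Chromosome 14 right had 31.9 kb in dnmt1 mt+ and 0 kb in dnmt1 mt- and both WT lists. Chromosome 8 right had 17.5 kb, in 1 peak that was the widest end peak of that list, against 0.496 kb in dnmt1 mt- and 0 kb in WT. Chromosome 1 left had 8.67 kb against 2.85 kb in WT mt+, while dnmt1 mt- had 0.505 kb against 4.32 kb in WT mt-. In set3 the same ends held at most 1.18 kb. Their median folds in dnmt1 mt+ were 1.64 to 1.93, below the list's end median of 2.29. The part of the background in these gains was not tested.

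The set3 lists were compared next, to see how much H3K9me1 stayed at the ends without this H3K9 methyltransferase. Less remained than in dnmt1. H3K9me1 covered 237 kb of end sequence in set3 mt+ and 301 kb in set3 mt-, a log2 ratio to WT of -1.31 and -0.995, or -1.15 ± 0.22 (SD over strains, n = 2). In the interiors the ratio was -2.39 and -1.33. Length was lower than in WT in both strains at 29 of 34 ends, and lower than in dnmt1 in both strains at 20 ends (26 in mt+ and 25 in mt-). The median background at end summits was 27 and 28 for set3. It was 38.0 and 40.7 for WT and 31.4 and 50.8 for dnmt1. Its part in the lower lengths and peak widths of the mutants, or in the difference between them, was not tested.

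In set3 the kept share was again highest in the first 15 kb. It was 43.6%, 49.7% and 46.9% in the first 3 steps in mt+, and 56.4%, 57.3% and 57.2% in mt-. At 20 to 25 kb both strains kept 36.2%, and beyond 35 kb at most 19.2%. The domains were also called with fewer wide peaks. Peaks of at least 5 kb numbered 5 in set3 mt+ and 6 in set3 mt-, covering 38.1 and 74.1 kb, whereas dnmt1 still had 15 and 26 of them with 147 and 299 kb. The run from the end reached a median of 6.75 and 6.81 kb. As peaks, 70 of 219 WT end peaks were kept for mt+ (32.0%, Wilson 26.1 to 38.4; 13.5% over all sequences), and the mt- list gave 62 of 179 (34.6%, 28.1 to 41.9; 17.5% over all sequences). With an overlap of at least 50% of the peak, which was not counted over all sequences, 15.5% and 19.0% were kept. Gained peaks were 15 of 275 for mt+ (5.45%, 3.33 to 8.80), and the mt- list gave 55 of 281 (19.6%, 15.4 to 24.6), where 58.3% and 75.6% of all peaks in these lists were gained. At least 50% of the WT length was kept at 7 of 27 ends in mt+ and 14 of 29 in mt-, and in 0.958% and 2.37% of interior windows.

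A few domains were still largely covered in set3. Chromosome 9 right kept 94.2% in mt+ and 97.6% in mt-, with 17.2 and 16.6 kb in set3. Chromosome 16 right kept 86.6% and 96.9%, and chromosome 2 left 90.7% and 92.6%. At chromosome 17 left 25.6 and 29.3 kb remained of 34.4 and 33.7 kb, and at chromosome 8 left 11.03 and 16.01 kb of 15.98 and 15.89 kb. These 5 ends were also the 5 with the highest kept share in dnmt1; both shares are taken against the same WT lists. Other ends with long domains had less left in set3 than in dnmt1. Chromosome 4 right went from 39.1 and 36.6 kb in WT to 23.5 and 24.9 kb in dnmt1 and 12.9 and 21.8 kb in set3. Chromosome 3 left had 15.9 and 22.2 kb in dnmt1 and 10.9 and 18.2 kb in set3, and chromosome 15 right had 14.0 and 23.8 kb in dnmt1 and 9.05 and 15.7 kb in set3. Chromosome 12 right had 0 kb left in set3 mt+ and 0.397 kb in set3 mt-, none of it on the WT domain.

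The next comparison asked how H3K9me3 at the ends responded to the loss of DNMT1. In dnmt1 H3K9me3 lay at the outermost parts of the chromosomes, where WT had little. It covered 173 and 212 kb of end sequence in dnmt1, where WT had 76.7 and 82.3 kb, or 2.26 and 2.58 times as much (log2 ratio 1.17 and 1.37, or 1.27 ± 0.14, SD over strains, n = 2). The interiors did not share in this, with log2 ratios of 0.041 and -0.027. In the first 5 kb, coverage went from 4.79% and 3.45% in WT to 15.8% and 20.4%, and at 10 to 15 kb from 1.89% and 1.68% to 14.0% and 20.2%. From 35 kb on the genotypes met, for instance at 40 to 45 kb where WT had 7.34% and 8.27% and dnmt1 7.79% and 7.76%. The outermost H3K9me3 peak of an end moved from a median of 20.7 and 25.7 kb to 3.88 and 3.29 kb. The ratio was larger without the 10 ends of raised background, at a log2 ratio of 1.59 in mt+ and 1.78 in mt-.

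Most of the H3K9me3 end peaks of dnmt1 were new. In mt+ 152 of 255 had no WT peak beneath them (59.6%, Wilson 53.5 to 65.4) and in mt- 143 of 239 (59.8%, 53.5 to 65.8), against 6.96% and 6.23% over all sequences. The new peaks were low, with median folds of 1.89 and 1.95 where the other dnmt1 end peaks had 3.12 and 3.31. The H3K9me3 peaks that WT had at the ends largely stayed: 106 of 131 for mt+ (80.9%, 73.3 to 86.7), and the mt- list gave 99 of 115 (86.1%, 78.6 to 91.3), against 94.9% and 94% over all sequences. Of 140 mt+ dnmt1 end peaks with no H3K9me3 peak of either WT strain beneath them, 90 overlapped such a peak of the mt- strain. The same overlap was not counted over all sequences, so it is not shown to be particular to the ends. The highest of these 90 by the smaller of their folds lay at chromosome 5, 12018 to 12516 in the mt+ list, with folds of 2.49 and 2.42. The next lay at chromosome 17, 14789 to 15199 (2.34 and 2.45), chromosome 7, 6486646 to 6488208 (2.27 and 2.45), chromosome 17, 20898 to 22669 (2.19 and 2.90), and chromosome 17, 6616 to 6915 (2.15 and 2.14).

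The marks that lay with H3K9me3 also differed. Genome-wide, H3K9me3 peaks in these lists sit almost entirely on H3K4me3 peaks. At the WT ends 93 of 131 did so in mt+ (71.0%) and 101 of 115 in mt- (87.8%), against 99.6% and 99.7% over all sequences. Of the WT mt+ end peaks off H3K4me3, 17 lay in a row of raised background at chromosome 5 right, described below. In that row WT mt- and dnmt1 mt+ had 0 H3K9me3 peaks and dnmt1 mt- had 9. In dnmt1, 101 of 255 end peaks in mt+ (39.6%) and 94 of 239 in mt- (39.3%) sat on H3K4me3, against 98.3% and 97.8%. Overlap with H3K9me1 went the other way. In WT 38 of 131 end peaks in mt+ (29.0%) and 15 of 115 in mt- (13.0%) touched H3K9me1, against 2.27% and 2.37% over all sequences, while in dnmt1 151 of 255 (59.2%) and 139 of 239 (58.2%) did, against 1.6% and 1.98%. Set against the WT H3K9me1 lists, 157 of the 255 (61.6%) and 139 of the 239 (58.2%) lay on a WT domain, against 4.42% and 4.89%. In length, H3K9me1 and H3K9me3 shared 13.6 and 8.07 kb at the WT ends and 98.7 and 137 kb at the dnmt1 ends.

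New H3K9me3 lay on the H3K9me1 that dnmt1 had kept, and hardly on the H3K9me1 it had lost. Sequence with H3K9me3 in dnmt1 and none in WT came to 109 kb in mt+ and 146 kb in mt-. Of this, 91.8 kb (84.3%) in mt+ and 129 kb (88.5%) in mt- fell on WT H3K9me1 that was still covered in dnmt1, making up 29.9% and 34.4% of that kept sequence. On lost H3K9me1 it made up 2.89% and 1.17%, and on sequence without H3K9me1 in either genotype 0.856% and 1.203%. With all ends pooled, the contrast held at every distance. New H3K9me3 took between 20.02% and 39.3% of the kept sequence of 6 distance bands in mt+ and between 27.9% and 41.9% in mt-, but at most 6.65% and 3.09% of the lost sequence. Of the ends with at least 1 kb of both kinds, it was denser on kept than on lost H3K9me1 at 16 of 24 in mt+ and 14 of 22 in mt-, and denser on lost at 2 and 3. The rest had no new H3K9me3 on either kind. The ends contributed unequally: 17 in mt+ and 18 in mt- had any new H3K9me3 on kept H3K9me1, and 8 in each strain had at least 5 kb of it.

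**Figure D4:**
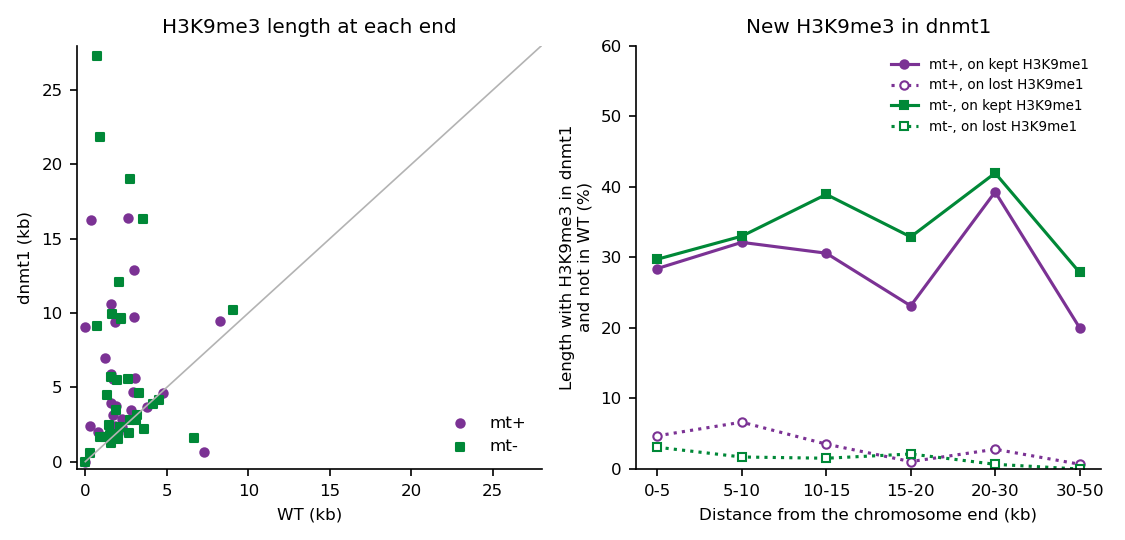
Left, length under H3K9me3 within 50 kb of each of 34 chromosome ends in WT (x axis, kb) and dnmt1 (y axis, kb), purple circles for mt+ and green squares for mt-, with a grey line where the genotypes are equal. Right, share of sequence that gained H3K9me3 in dnmt1 (y axis, %) by distance from the end (x axis, kb), filled symbols for WT H3K9me1 that dnmt1 kept and open symbols for WT H3K9me1 that it lost. The highest points on the left are chromosome 16 right for mt+, at 16.4 kb in dnmt1, and chromosome 17 left for mt-, at 27.3 kb. On the right the kept sequence lies between 20.02% and 41.9% and the lost sequence at or below 6.65%.

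Not every end gained H3K9me3. Its length was greater in dnmt1 in both strains at 21 of 34 ends, by at least 1 kb at 15 and by at least 5 kb at 7, and was smaller in both at 4. Chromosome 17 left changed most, from 0.358 and 0.747 kb in WT to 16.3 and 27.3 kb in dnmt1. Chromosome 16 right went from 2.62 and 3.55 kb to 16.4 and 16.3 kb, of which 12.9 and 13.6 kb lay on the H3K9me1 of dnmt1. Chromosome 4 right went from 2.98 and 0.871 kb to 12.9 and 21.9 kb, chromosome 10 right from 1.57 and 2.73 kb to 10.6 and 19.0 kb, and chromosome 7 right from 0 and 0.721 kb to 9.09 and 9.10 kb. Some ends that kept H3K9me1 gained less H3K9me3. Chromosome 9 right, which kept over 90% of its H3K9me1 in both strains, went from 1.69 and 1.61 kb of H3K9me3 to 5.56 and 5.66 kb. Chromosome 3 left, with 15.9 and 22.2 kb of H3K9me1 in dnmt1, went from 0.806 and 0.904 kb of H3K9me3 to 1.99 and 1.64 kb, and chromosome 15 right from 0.291 and 0.257 kb to 2.41 and 0.572 kb. At chromosome 12 right, where dnmt1 had 0 and 5.16 kb of H3K9me1, WT had 1.57 and 2.00 kb of H3K9me3 and both dnmt1 lists had 1.51 kb. Chromosome 13 right already carried 8.25 and 9.07 kb in WT and had 9.44 and 10.2 kb in dnmt1.

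**Figure D5:**
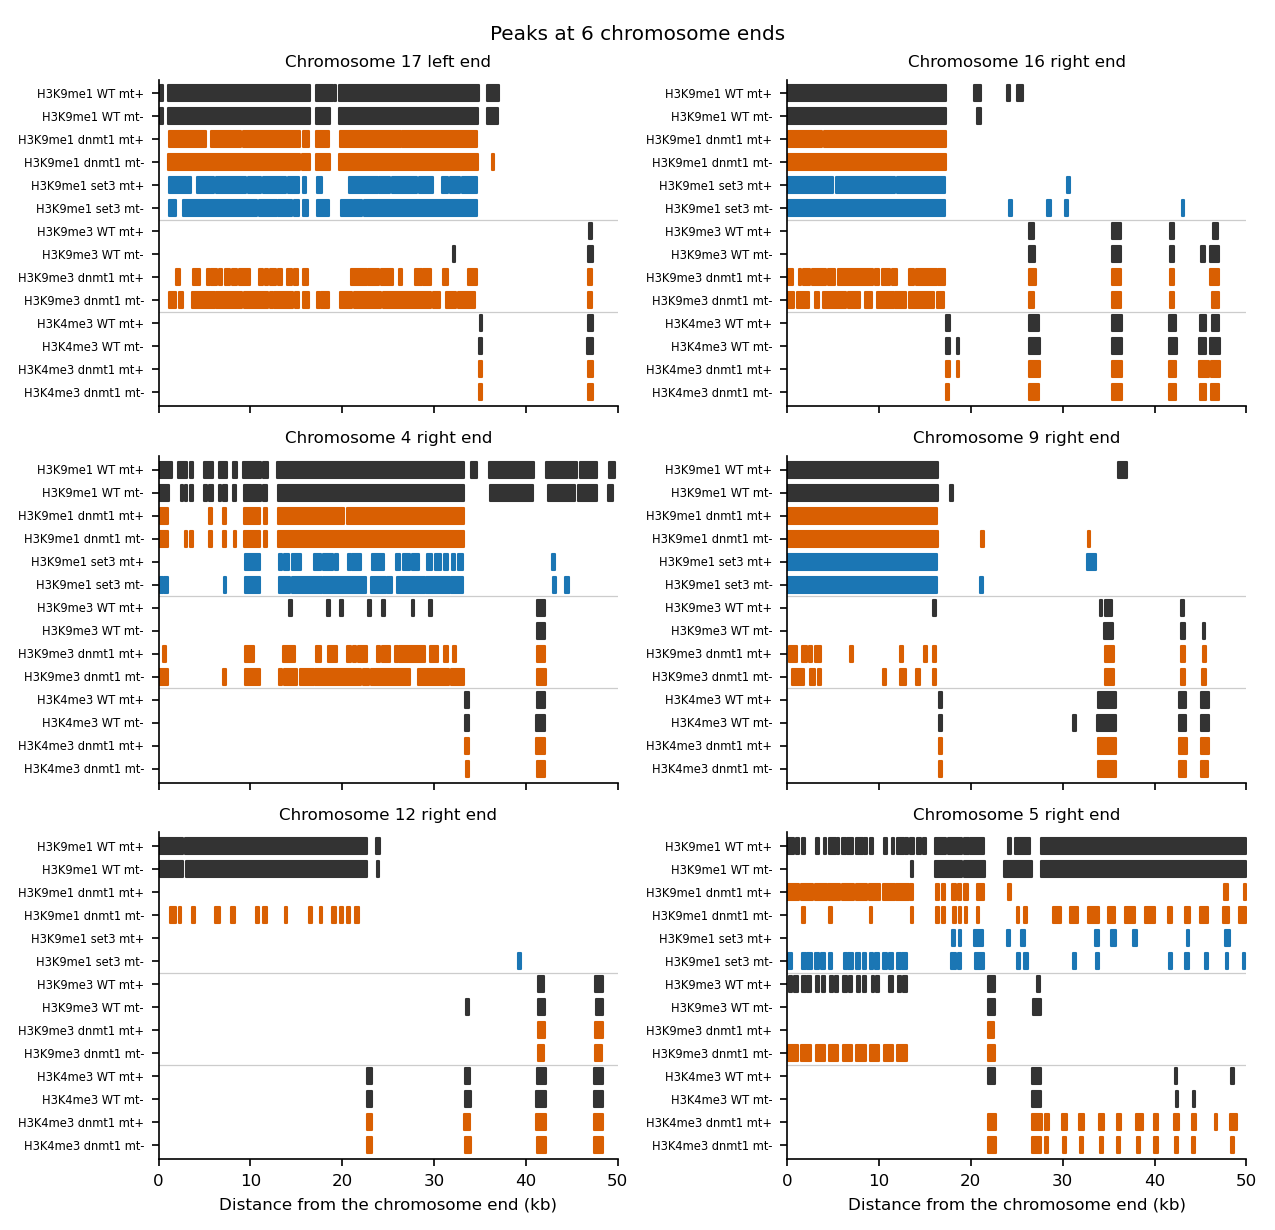
Peaks within 50 kb of 6 chromosome ends (x axis, distance from the end in kb), one line per library of H3K9me1, H3K9me3 and H3K4me3, black for WT, orange for dnmt1 and blue for set3. At chromosomes 17 left, 16 right and 4 right the dnmt1 H3K9me3 peaks lie across the retained H3K9me1 domain, at chromosome 9 right they cover 5.56 and 5.66 kb, at chromosome 12 right 0 and 5.16 kb of H3K9me1 are left in dnmt1, and chromosome 5 right shows rows of evenly spaced peaks.

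H3K4me3 at the ends changed little in dnmt1. WT had 108 and 116 kb and dnmt1 129 and 113 kb, a log2 ratio of 0.25 in mt+ and -0.046 in mt-, so the strains did not move the same way. All 146 WT end peaks were kept in mt+ (99.8% over all sequences) and 146 of 154 in mt- (94.8%, Wilson 90.1 to 97.3; 98.2% over all sequences). The outermost H3K4me3 peak stayed at a median of 16.4 and 16.6 kb. Gained peaks numbered 21 of 167 for mt+ (12.6%, 8.37 to 18.5), and the mt- list gave 13 of 159 (8.18%, 4.84 to 13.5), against 3.57% and 1.62% over all sequences. Gained in both strains at the same place were 9 peaks, all of them on WT H3K9me1 of both strains. The same share was not counted over all sequences, and most of the 9 lay in a single row described below. Of these 9, 1 lay on H3K9me1 of a dnmt1 list.

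Chromosome 5 right held 7 of the 9, chosen for description after their values were seen. They stood in a row 28.3 to 40.2 kb from the end, inside the widest WT H3K9me1 end peak, 1.82 to 2.24 kb apart (median 1.90 kb), with a fold between 3.44 and 4.64 in the mt+ list and between 1.68 and 2.87 in the mt- list. Further inward, more H3K4me3 peaks had outer edges at 42.1, 44.1, 46.6 and 48.3 kb in dnmt1 mt+ and at 42.2, 44.1 and 48.3 kb in dnmt1 mt-. WT already had peaks at some of these places, from 42.2 and 48.3 kb in mt+ and from 42.3 and 44.2 kb in mt-. None of the 7 gained peaks overlapped H3K9me3 in dnmt1. The other two were at chromosome 7 left, 46080 to 46750, and chromosome 12 left, 1673 to 2422. In the outermost 14 kb of chromosome 5 right another row of peaks was seen, which differed between libraries. H3K9me3 had 17 peaks there in WT mt+ (median spacing 0.745 kb, median fold 1.40) and 9 in dnmt1 mt- (spacing 1.46 to 1.52 kb, median fold 1.595), and 0 in WT mt- and dnmt1 mt+. H3K9me1 had 17 peaks in WT mt+, 10 in dnmt1 mt+ (median spacing 1.48 kb), 16 in set3 mt-, 4 in dnmt1 mt-, 1 in WT mt- and 0 in set3 mt+. The libraries with at least 4 peaks there had median backgrounds of 232 to 299 at these summits. Over the whole end, H3K9me3 went from 7.28 kb in WT to 0.653 kb in dnmt1 for mt+, and from 1.65 to 9.91 kb for mt-. The part of the background in these rows was not tested.

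H3K4me1 peaks at the ends followed the size of their lists. There were 22 in WT mt+, 63 in WT mt-, 130 in dnmt1 mt+ and 12 in dnmt1 mt-, covering 8.11, 26.2, 70.5 and 4.97 kb, so the log2 ratio of dnmt1 to WT was 3.12 in mt+ and -2.40 in mt-. Of the WT end peaks, 13 of 22 were kept in mt+ (59.1%; 61.8% over all sequences) and 5 of 63 in mt- (7.94%; 7.71% over all sequences). Gained were 118 of 130 (90.8%; 90% over all sequences) and 7 of 12 (58.3%; 63.9% over all sequences). These shares are near those of the whole lists and show nothing particular to the ends. None of the H3K4me1 length at the ends overlapped H3K4me3 or H3K9me3 of the same genotype and strain, while between 2.06% and 35.8% of it overlapped H3K9me1.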

How the data were processed

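The analysis started from 18 lists of narrow peaks, 1 per ChIP library, deposited by the authors; 10 input libraries were not analysed here. Per the submitters' processing notes, which give no settings, the tools were MACS2 2.2.7.1, Bowtie2 2.4.2, Trim Galore 0.6.7, deepTools 3.5.1 and Picard. The genome build and the handling of reads that map to several places are not given in the sources used here, so no gene or sequence was assigned to a peak. For each peak the authors deposited a display score, a fold enrichment (a linear ratio), a −log10 p-value, a −log10 q-value and a summit position. The sample titles name inputs for H3K4me1 and for H3K9me1 and none for H3K4me3 or H3K9me3. Whether the H3K4me1 input of a strain and genotype also served H3K4me3 and H3K9me3 is not stated in the titles. The score, fold, −log10 p and −log10 q are the authors' values and were used to describe or filter peaks within a list. Read counts were not among the values used, so depth was recovered per summit from fold = (pileup + 1) / (background + 1) and the Poisson p-value. This could be solved for 94.8% to 100% of the summits of each list on the 17 chromosomes. The recovered values are scaled pileups, not reads.

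Peaks of a list were merged and clipped to the 34 windows for lengths. A WT peak was kept, and a mutant peak not gained, if at least 1 bp overlapped. Coordinates are those of the deposited lists, counted from 1. Shares of peaks carry Wilson 95% intervals (counting error only, neighbouring peaks treated as independent). Libraries of a mark, which differ in genotype and strain, were tested with an exact two-sided sign-flip permutation test, adjusted by Benjamini-Hochberg over 4 marks. Interiors are the chromosomes outside the windows, cut into 2204 windows of 50 kb for the count of windows that kept their length; "over all sequences" includes contigs. Ends named are the 5 with the most WT H3K9me1, the 5 highest and 5 lowest in kept share for dnmt1, the 5 highest for set3, those with none in WT, and the 5 with the largest rises of H3K9me3 and of H3K9me1; peaks named are the widest of each mark in WT and the 5 highest H3K9me3 peaks gained in both strains. The windows, rules and lists were chosen with earlier results of these data known. Alternatives were a −log10 q of at least 5, windows of 25 kb, an overlap of 50%, ends set at the outermost peak and, added after the data were examined, leaving out 3 or 10 ends. Overlap and depth functions were tested on simulated data. Python 3.11.15, NumPy 2.4.6, SciPy 1.17.1 and Matplotlib 3.10.9 were used.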

Additional observations from a re-analysis of the deposited data

Results flagged for a closer look

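In each case below the strains moved in opposite directions between WT and dnmt1, with 1 library behind each value, and the difference between the strains was not tested. The log2 ratio of H3K4me3 end length was 0.25 in mt+ and -0.046 in mt-. For H3K4me1 end length it was 3.12 in mt+ and -2.40 in mt-. The H3K9me1 length at the left end of chromosome 1 differed from WT by 5.82 kb in mt+ and by -3.81 kb in mt-. H3K9me3 length at the right end of chromosome 5 differed by -6.62 kb in mt+ and by 8.26 kb in mt-. At the left end of chromosome 15 it differed by 1.42 kb in mt+ and by -5.08 kb in mt-. All 3 ends are among the 10 with raised local background, whose part in these differences was not tested.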

How the results depend on the processing

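Of the recomputed values, 54 stayed on their side or within the spread between strains, 23 moved and 2 reversed; the cause was not tested. Keeping only peaks with −log10 q from 5 up, the H3K9me1 length ratio was -0.70 in dnmt1 and -1.46 in set3, that of H3K9me3 1.09, kept peaks 41.3% and 31.4%, kept length in set3 35.6%, H3K9me3 gained 51.9% and the H3K4me1 density reversed to 0.51, while no H3K4me1 length ratio could be given because a list had no such peak left at the ends. With 25 kb windows the ratio was -0.49 for H3K9me1 in dnmt1 and 2.17 for H3K9me3, with 65.3% of length and 55.1% of peaks kept in dnmt1 and 82.4% of H3K9me3 peaks gained. An overlap of 50% gave 30.2% and 17.3% kept in dnmt1 and set3 and 62.3% gained, and ends at the outermost peak gave -0.67 and 59.2%. Without the 3 ends, the dnmt1 H3K9me1 ratio was -0.77 and the H3K9me3 density reversed to 0.015. Without the 10 ends of raised background the dnmt1 ratios were -0.70 for H3K9me1 and 1.68 for H3K9me3, kept peaks 40.2% and 29.5%, and H3K9me3 gained 65.1%. Values are means of both strains, except that densities are log2 means over the libraries of a mark that had end length left. The H3K4me1 density of 0.51 rests on values of 0.97 and 0.052 alone. Genotypes were compared within a strain throughout, and no replicate block could be added because the labels carry no replicate numbers. Peak lists record calls, so a domain just below the threshold counts as missing, and depth in reads is unknown.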
